A study of Arabidopsis thaliana with 9 samples.

Results

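The genes described here are those carried by the chloroplast and the mitochondrial genomes of *Arabidopsis thaliana*. They were taken as the rows with values whose identifier begins with ATCG (chloroplast) or ATMG (mitochondrion). There were 230 of them among 25717 genes with values, 129 chloroplast genes (of 133 identifiers in the table) and 101 mitochondrial genes (of 152). The other 25487 were nuclear. The samples were whole seedlings of 3 genotypes with 3 libraries each: wild-type Col-0, *exg1-1* (the labels spell the gene EVG1), in which a T-DNA interrupts *EXG1* (AT3G08030), and *rlp44-3*, a mutant of the receptor-like protein gene *RLP44* (AT3G49750). All seedlings had grown for 7 days on agar medium with 8 h of light and 16 h of darkness per day at 20 °C, with no other treatment, and each mutant was represented by 1 allele. Whole seedlings mix green, root and other tissues. Polyadenylated RNA was selected before the libraries were made. Fewer organelles or cells of a type and less RNA in each of them cannot be told apart in such samples. Nor can less RNA be told apart from a smaller part of it passing the poly(A) selection.

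Chloroplasts and mitochondria descend from bacteria and keep small genomes of their own. The chloroplast genome encodes subunits of the photosystems, of the cytochrome b6f, NDH and ATP synthase complexes and of Rubisco, a plastid RNA polymerase, and the ribosomal RNAs, transfer RNAs and many ribosomal proteins needed to translate them. The mitochondrial genome encodes subunits of the respiratory chain and ATP synthase, factors of cytochrome c maturation and parts of the ribosome. Nuclear genes supply the sigma factors that direct the plastid polymerase to promoters, phage-type RNA polymerases for both organelles, and the enzymes that degrade organelle RNA. In plant organelles a poly(A) tail marks an RNA for decay rather than stabilising it, so libraries selected for poly(A) sample organelle RNA only in part.

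The deposited values, on the scale of reads, were means from a fitted model, and the libraries of a genotype differed only by a constant factor (largest relative deviation 9.55e-15). None of the values was whole (tolerance 1e-06). No spread between replicates could therefore be had and no test was possible. Differences are given below as descriptions, and the intervals beside them are exact 95% counting intervals, which cover counting error only. Fitted reads summed to 8364383 to 9606982 per Col-0 library, 10396228 to 12971468 per *exg1-1* library and 11015026 to 11535985 per *rlp44-3* library. *EXG1* had 2828 fitted reads over the 3 Col-0 libraries, 1175 in *exg1-1* and 3177 in *rlp44-3*, so reads remained in *exg1-1*. *RLP44* had 102 in Col-0, against 105 in *exg1-1* and about 1 (1.08) in *rlp44-3*.

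Of the 6 green-tissue markers, such as *RBCS1A* (the Rubisco small subunit), all 6 were detected, with a summed level of 52085 per 1000000 nuclear reads in Col-0, against 57894 in *exg1-1* and 56430 in *rlp44-3*. Of 7 root markers 6 passed the filter described below, with sums of 2939, 2717 and 3076 for the 3 genotypes, and *NRT2.1* (a root nitrate transporter) was under 3 reads in every genotype. *BGLU23* alone made up most of these sums (2849, 2630 and 2992). Of the 6, 5 were lower in *exg1-1* and 4 in *rlp44-3*, where 50.6% and 50.2% of all genes were. In *exg1-1* 2 were at least 1.5-fold lower (*WER*, log2 difference −0.77, and *COBL9*, −0.59), where 5.29% of all genes were. The seed storage and oil body markers were higher in Col-0. Their summed level was 17.9 per 1000000 nuclear reads in Col-0, against 2.88 in *exg1-1* and 1.13 in *rlp44-3*, with all 5 of 5 lower in both mutants. The storage protein gene *CRC* had 77.2 fitted reads over the 3 libraries in Col-0 and was under the floor of 3 reads in both mutants. These root and seed marker differences lay beside all organelle differences below, and their part in them was not tested.

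Sequences are shown first for the genes on which the named results rest. Neither the deposited table nor the annotation used here pairs ATCG or ATMG identifiers with gene symbols. Products were known only where a RefSeq note (TAIR10.1) named the identifier as the best match or source of a nuclear gene. Such notes named 7 chloroplast genes, 5 of them described here by product, and 36 mitochondrial genes with values. Of these 36, 30 were given a product, and for 20 it was other than an unknown protein. The first 60 coding bases of 3 chloroplast genes from RefSeq TAIR10.1 are shown because their products are annotated and their RNA differed between genotypes. *cemA* encodes a protein of the chloroplast inner envelope, *rpl20* encodes a protein of the large ribosomal subunit, and *clpP* encodes the proteolytic subunit of the Clp protease. The start codon is in capitals.
cemA (ATCG00530, plus strand): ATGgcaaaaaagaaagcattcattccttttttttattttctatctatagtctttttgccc
rpl20 (ATCG00660, minus strand): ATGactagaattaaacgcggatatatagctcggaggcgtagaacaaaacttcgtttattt
clpP (ATCG00670, minus strand): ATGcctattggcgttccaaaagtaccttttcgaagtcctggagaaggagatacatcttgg

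Mitochondrial genes of this accession have a second location. Chromosome 2 of Col-0 holds a large insertion of mitochondrial DNA, and the genes annotated there repeat mitochondrial genes. The starts of 3 such pairs are shown because each pair was counted under separate identifiers. *nad3* encodes a subunit of respiratory complex I, *rps12* a protein of the small ribosomal subunit and *atp1* the alpha subunit of ATP synthase. The start codon is again in capitals.
nad3, mitochondrion (ATMG00990, plus strand): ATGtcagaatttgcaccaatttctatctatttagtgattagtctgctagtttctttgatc
nad3, chromosome 2 (AT2G07751, plus strand): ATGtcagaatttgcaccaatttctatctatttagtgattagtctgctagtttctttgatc
rps12, mitochondrion (ATMG00980, plus strand): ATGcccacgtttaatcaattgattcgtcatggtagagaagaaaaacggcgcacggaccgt
rps12, chromosome 2 (AT2G07675, plus strand): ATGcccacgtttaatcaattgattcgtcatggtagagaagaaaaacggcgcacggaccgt
atp1, mitochondrion (ATMG01190, minus strand): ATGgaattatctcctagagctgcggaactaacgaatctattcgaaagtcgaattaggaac
atp1, chromosome 2 (AT2G07698, plus strand): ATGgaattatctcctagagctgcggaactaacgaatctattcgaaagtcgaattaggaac

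The organelle genomes were then compared as wholes. Chloroplast genes took a larger share of the reads in *exg1-1* and a smaller one in *rlp44-3* than in Col-0. The share was 2.33% in Col-0, against 2.61% in *exg1-1* and 1.81% in *rlp44-3*. Mitochondrial genes took 0.508% in Col-0, against 0.380% in *exg1-1* and 0.393% in *rlp44-3*, lower in both mutants. The share is the same in the 3 libraries of a genotype by the construction of the table, so the bars of the plot of shares carry no spread.

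**Figure D1:**
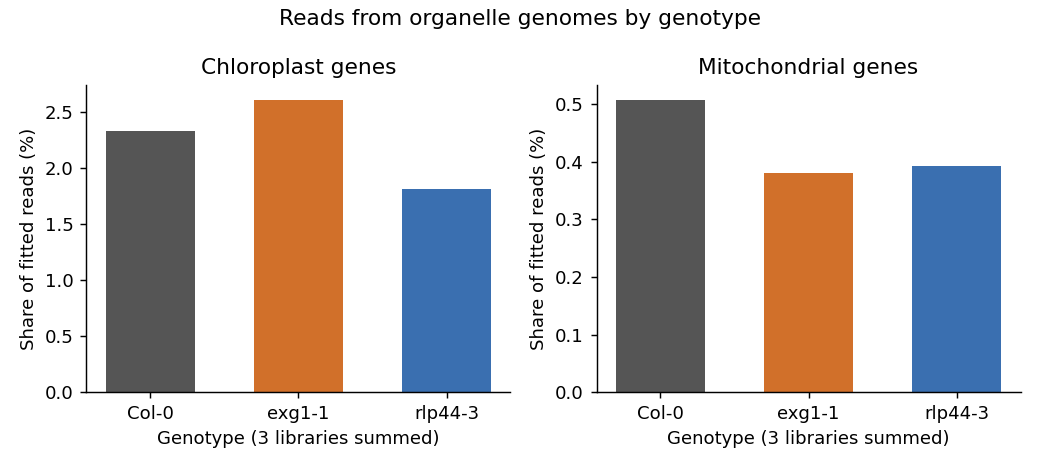
Share of all fitted reads (%, vertical axes starting at 0) that belonged to chloroplast genes (left) and mitochondrial genes (right) in the 3 genotypes, each bar being the sum of 3 libraries. The chloroplast bars stand at 2.33% in Col-0, against 2.61% in *exg1-1* and 1.81% in *rlp44-3*, and the mitochondrial bars at 0.508%, 0.380% and 0.393%.

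Levels were next set against the nuclear genes alone, with genotypes scaled by the trimmed mean of M values over nuclear genes. The summed chloroplast level was 23934 per 1000000 nuclear reads in Col-0 (all genotypes on the Col-0 scale), 27834 in *exg1-1* and 18467 in *rlp44-3*. The log2 difference from Col-0 was 0.22 in *exg1-1* (counting interval 0.21 to 0.22), a 1.16-fold level, and −0.37 in *rlp44-3* (−0.38 to −0.37), a 0.772-fold level. The summed mitochondrial level was 5224 in Col-0, 4054 in the first mutant and 4016 in the second, with log2 differences of −0.37 in *exg1-1* (−0.38 to −0.36) and −0.38 in *rlp44-3* (−0.39 to −0.37). The summed nuclear level differed from Col-0 by 0.05 and −0.00 on the log2 scale. Both mutants were compared with the same Col-0 libraries, so their differences from Col-0 are not independent of each other.

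Single chloroplast genes differed from Col-0 in the same direction as their sum. The filter asked for 10 reads, at median library size, in each library of 1 genotype or more and for 15 reads in all. It left 106 of the 129 chloroplast genes, while 23 did not pass and 6 of those were under 3 reads in every genotype. Of the 106, 100 reached the filter's level in all 3 genotypes. In *exg1-1*, 92 of the 106 were higher than in Col-0 and 14 lower, where 49.4% of all 19454 genes passing the filter were higher. The median log2 difference was 0.29 (quartiles 0.11 and 0.42), and the median of all genes was −0.00. In *rlp44-3*, 93 of the 106 were lower and 13 higher, where 50.2% of all genes were lower and 49.8% higher, with a median log2 difference of −0.34 (quartiles −0.59 and −0.16) beside −0.00 for all genes.

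At a 1.5-fold difference (0.58 on the log2 scale) the numbers were smaller and differed between the mutants. In *exg1-1*, 8 chloroplast genes were at least 1.5-fold higher, 7.55% of those passing, where 3.03% of all genes were, and 7 of the 8 reached the filter's level in all 3 genotypes. A single gene was at least 1.5-fold lower, where 5.29% of all genes were. In *rlp44-3*, 27 chloroplast genes were at least 1.5-fold lower, 25.5% of those passing, where 3.15% of all genes were (25 of the 27 reached the filter's level in all 3 genotypes), and 0 were at least 1.5-fold higher, where 2.07% of all genes were. At 2-fold, no chloroplast gene stood apart in *exg1-1* in either direction, where 0.956% of all genes were higher and 1.6% lower. In *rlp44-3* 1 was at least 2-fold lower, where 1.09% of all genes were, and 0 were at least 2-fold higher, where 0.586% of all genes were.

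**Figure D2:**
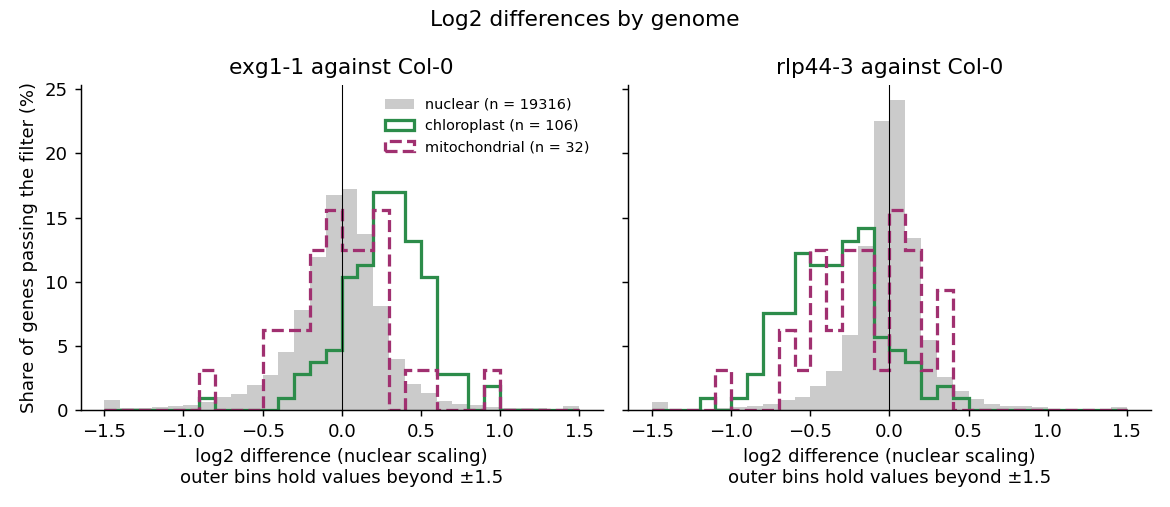
Share of genes passing the filter (%, vertical axis) by log2 difference from Col-0 (horizontal axis, bins of equal width, the outer bins holding values beyond the axis) for nuclear, chloroplast and mitochondrial genes in *exg1-1* (left) and *rlp44-3* (right). The 106 chloroplast genes lie to the right of 0 in *exg1-1* (median 0.29) and to the left in *rlp44-3* (median −0.34), whereas the 32 mitochondrial genes straddle 0 in *exg1-1* (median −0.01) and lie slightly to the left in *rlp44-3* (median −0.13).

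The mutants were also compared with each other, without Col-0. Of the 106 chloroplast genes, 102 were higher in *exg1-1* than in *rlp44-3*, where 50.6% of all genes were. The median log2 difference was 0.61, the range was −0.68 to 1.54, and 59 genes were at least 1.5-fold higher in *exg1-1*, where 3.02% of all genes were. Of these, 12 were at least 2-fold higher, where 0.956% of all genes were. In the other direction 1 was at least 1.5-fold lower in *exg1-1*, where 3.97% of all genes were, and 0 were at least 2-fold lower, where 1.06% were. The widest gap was that of ATCG00590 (no product annotated), with 123 fitted reads in Col-0, against 253 in *exg1-1* and 85.1 in *rlp44-3*. Its log2 difference between the mutants was 1.54 (1.18 to 1.91).

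The differences were seen in genes of few and of many reads. The 106 members were ordered by mean reads per library and split into 4 parts of 26 or 27 genes. The median log2 difference in *exg1-1* was 0.34 in the part with fewest reads (8.38 to 108 reads per library), then 0.28, 0.31, and 0.21 in the part with most (2331 to 23614). In *rlp44-3* it was −0.15 in the part with fewest reads, then −0.41, −0.39, and −0.39 in the part with most. Of the 27 genes with most reads, 22 were higher in *exg1-1* and 26 lower in *rlp44-3* than in Col-0. The 13 genes that were higher in *rlp44-3* than in Col-0 included 8 of the 27 with fewest reads.

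**Figure D3:**
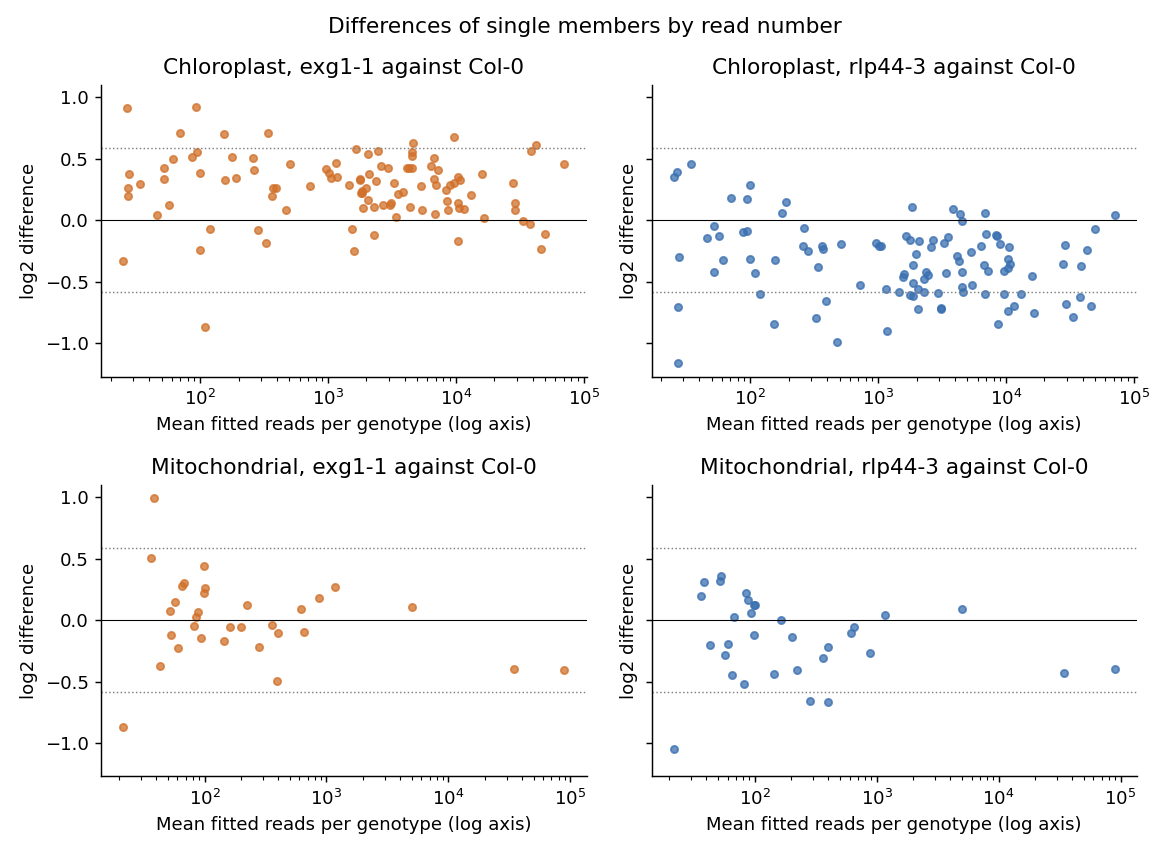
Log2 difference from Col-0 (vertical axes) of each gene that passed the filter against its mean fitted reads per genotype (horizontal log axes), with chloroplast genes above, mitochondrial genes below, *exg1-1* on the left and *rlp44-3* on the right. Each point is 1 gene and the dotted lines mark a 1.5-fold difference. Chloroplast points lie mostly above 0 in *exg1-1* and below 0 in *rlp44-3* over the whole range of reads. The 2 mitochondrial genes with most reads lie near −0.4 in both mutants, to the right of the other mitochondrial points.

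The chloroplast genes with most reads differed among themselves. The 6 with most Col-0 reads, none of them with an annotated product, held 39.2% of the chloroplast reads of Col-0. ATCG00480 had 18203, 16165 and 18567 fitted reads in the Col-0 libraries, 26592, 32293 and 33179 in *exg1-1*, and 22354, 22067 and 23110 in *rlp44-3*. After scaling its level was 1989 per 1000000 nuclear reads in Col-0, against 2728 in *exg1-1* and 2046 in *rlp44-3*, so that it was higher in *exg1-1* (log2 difference 0.46, 0.44 to 0.47) and close to Col-0 in *rlp44-3* (0.04, 0.02 to 0.06). ATCG00490 had 16932, 15037 and 17270 fitted reads in Col-0, 15302, 18583 and 19092 in *exg1-1*, and 12455, 12295 and 12877 in *rlp44-3*. It was lower in both mutants, by −0.24 in *exg1-1* (−0.25 to −0.22) and −0.70 in *rlp44-3* (−0.72 to −0.68) on the log2 scale.

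The remaining 4 of these genes showed 3 further patterns. ATCG00470 lay near Col-0 in both mutants, with log2 differences of −0.11 and −0.07. ATCG00020 and ATCG00340 were close to the Col-0 level in *exg1-1* (−0.03 and −0.01) and well below it in *rlp44-3* (−0.62 and −0.79). ATCG00270 was higher in *exg1-1* (0.61, 0.59 to 0.63), from 1208 to 1848 per 1000000 nuclear reads, and lower in *rlp44-3* (−0.24, −0.26 to −0.22). Among these 6 genes, 2 were higher in *exg1-1* and 5 lower in *rlp44-3* than in Col-0.

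The chloroplast genes at the ends of the range had fewer reads. In *exg1-1* the highest log2 differences were those of ATCG00905 (0.92, 0.48 to 1.40) and ATCG01300 (0.92, 0.03 to 1.85), with 58.5 and 16.0 Col-0 reads over the 3 libraries. ATCG01300 passed the filter through *exg1-1* alone, where it was high, so its place follows in part from the filter. The lowest was that of ATCG00570 (−0.87, −1.28 to −0.46), with 125 reads in Col-0, against 86.7 in *exg1-1* and 115 in *rlp44-3*. It was the gene that was at least 1.5-fold lower in *exg1-1*. In *rlp44-3* the lowest were ATCG00860 (−1.16, −2.17 to −0.20), with 8.26 to 9.49 reads per library in Col-0 and 4.90 to 5.13 in *rlp44-3*, and ATCG00560 (−0.99, −1.20 to −0.78), with 478 reads over the 3 libraries in Col-0 and 299 in *rlp44-3*. The highest was ATCG00250 (0.46), whose interval of −0.30 to 1.25 included 0. Of these, ATCG00860 did not reach the filter's level in *rlp44-3* and ATCG00250 did not in Col-0.

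The 5 chloroplast genes described by product had log2 differences from 0.10 to 0.58 in *exg1-1* and from −0.54 to −0.13 in *rlp44-3*. These are values of the genes described and not of every member with a product. *cemA* had 1282, 1139 and 1308 fitted reads in the Col-0 libraries, 1966, 2388 and 2453 in *exg1-1*, and 1052, 1038 and 1087 in *rlp44-3*. These values are not corrected for depth, which was greater in both mutants, and within a genotype they are multiples of 1 value. On the nuclear scale its log2 difference was 0.53 in *exg1-1* (0.47 to 0.58) and −0.54 in *rlp44-3* (−0.61 to −0.47).

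*rpl20* had 423, 376 and 432 fitted reads in Col-0, 674, 818 and 841 in *exg1-1*, and 462, 456 and 477 in *rlp44-3*. It was the annotated gene with the highest value in *exg1-1*, with a log2 difference of 0.58 (0.48 to 0.68) beside −0.13 in *rlp44-3* (−0.24 to −0.02). *clpP* had 2544, 2259 and 2595 fitted reads in Col-0, 3306, 4015 and 4126 in *exg1-1*, and 2664, 2630 and 2754 in *rlp44-3*. Its log2 difference was 0.29 (0.25 to 0.33) in *exg1-1* and −0.19 (−0.23 to −0.14) in *rlp44-3*.

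ATCG00430 had 9310 reads over the 3 libraries in Col-0, 12634 in the first mutant and 9957 in the second, and log2 differences of 0.10 (0.06 to 0.14) and −0.21 (−0.25 to −0.17). The RefSeq note calls its product photosystem II reaction center protein G, a name that was not checked here and need not give its function. ATCG01310, annotated as ribosomal protein L2 of the large subunit, had 311, 451 and 332 reads, with differences of 0.20 and −0.21 whose intervals (−0.02 to 0.41 and −0.44 to 0.01) included 0. RefSeq places *rpl2* at 2 sites of the chloroplast genome, and reads from either copy cannot be told apart.

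Each of these genes was set beside the nuclear gene whose protein RefSeq names as its relative. Over the 5 pairs, the chloroplast genes had a median log2 difference of 0.29 in *exg1-1* (0.10 to 0.58) and the nuclear genes −0.14 (−0.21 to 0.18). In *rlp44-3* the medians were −0.21 (−0.54 to −0.13) and −0.0091 (−0.14 to 0.05). The nuclear relatives of *cemA* (AT4G31040, 0.18 in *exg1-1*), *rpl20* (AT1G16740, −0.19) and *clpP* (AT1G12410, 0.08) lay nearer to Col-0 there than the chloroplast genes. Those of ATCG00430 (AT5G11770, −0.14) and ATCG01310 (AT2G44065, −0.21) lay below Col-0, slightly farther from it than the chloroplast genes lay above. None of the 3 chloroplast genes whose sequences are shown shared an exact window of 150 bases, the length of 1 read, with any other place in TAIR10.1.

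**Figure D4:**
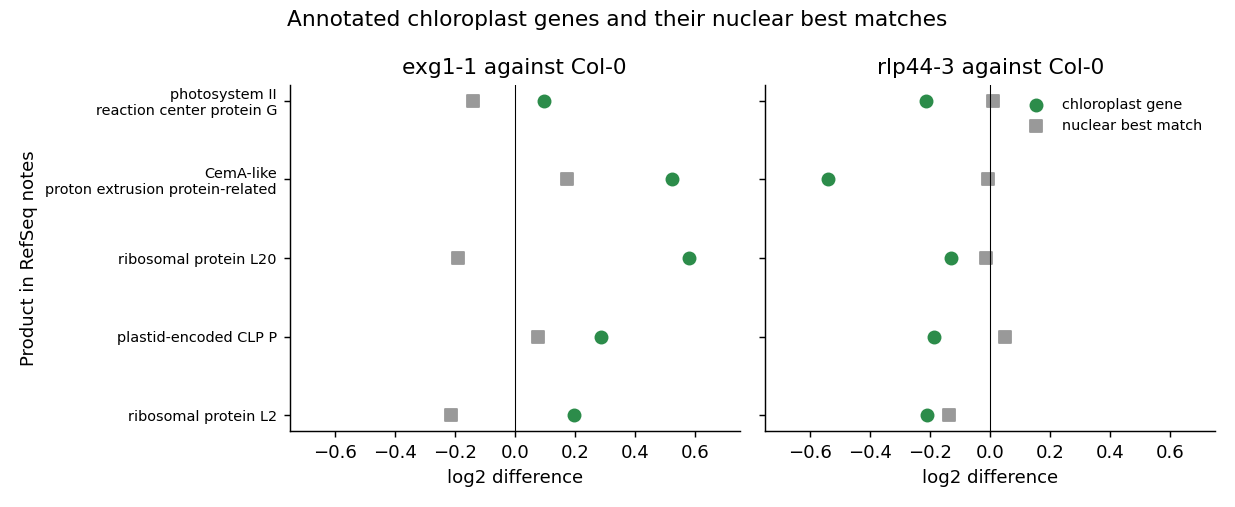
Log2 difference from Col-0 (horizontal axes) of 5 chloroplast genes with an annotated product (circles) and of a nuclear gene for each (squares), in *exg1-1* (left) and *rlp44-3* (right). The nuclear gene is the one whose best protein match in the RefSeq notes is the chloroplast gene in the same row. The circles lie between 0.10 and 0.58 in *exg1-1* and between −0.54 and −0.13 in *rlp44-3*, and the squares between −0.21 and 0.18 and between −0.14 and 0.05.

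Per length, annotated chloroplast genes differed in level. Fitted reads in Col-0 over the 3 libraries per kilobase of coding sequence were 12516 for *clpP*, 5404 for *cemA* and 3477 for *rpl20*. In *exg1-1* they were 19370, 9866 and 6589, and in *rlp44-3* 13618, 4605 and 3939, so the order was kept in each genotype. These are not corrected for depth between genotypes, and coding length leaves out the untranslated parts of the transcripts.

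The mitochondrial sum had another make-up. Of 101 mitochondrial genes with values, 32 passed the filter, 69 did not, and 33 of those were under 3 reads in every genotype, and the median gene had 6.15 reads over the 3 Col-0 libraries, where the median chloroplast gene had 1435. Only 3 mitochondrial genes reached 1000 reads in Col-0. ATMG00020 alone held 66.7% of the mitochondrial reads of Col-0 and ATMG01390 held 26.0%, so these 2 identifiers, neither with an annotated product, made up 92.7%. ATMG00020 had 31894, 28324 and 32532 fitted reads in the Col-0 libraries, 25561, 31041 and 31892 in *exg1-1*, and 28866, 28495 and 29842 in *rlp44-3*.

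The fitted reads of ATMG00020 overlapped between genotypes before scaling, and the mutants had the deeper libraries. On the nuclear scale its level was 3485 per 1000000 nuclear reads in Col-0, against 2622 in *exg1-1* and 2642 in *rlp44-3*, log2 differences of −0.41 (−0.42 to −0.40) and −0.40 (−0.41 to −0.39). ATMG01390 stood at 1356, 1031 and 1008, differences of −0.40 (−0.42 to −0.37) and −0.43 (−0.45 to −0.41). Without these 2 genes the summed mitochondrial level differed from Col-0 by 0.065 on the log2 scale in *exg1-1* and by −0.069 in *rlp44-3*. The lower mitochondrial sum of both mutants was therefore carried by 2 genes. Whether their RNA level differed, or the part of their RNA that passed the poly(A) selection, was not tested.

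Single mitochondrial genes were evenly split around the Col-0 level in *exg1-1* and more often lower than higher in *rlp44-3*. In *exg1-1*, 16 of the 32 passing genes were higher and 16 lower, where 49.4% of all genes were higher, with a median log2 difference of −0.01. A single gene was at least 1.5-fold higher and 1 was at least 1.5-fold lower, where 3.03% and 5.29% of all genes were, and neither reached the filter's level in all 3 genotypes. In *rlp44-3*, 13 were higher and 19 lower, where 50.2% of all genes were lower, with a median of −0.13 (quartiles −0.40 and 0.10). Of the 16 passing genes with most reads, 12 were lower and 4 higher in *rlp44-3* (median −0.24). Of the 16 with fewest reads, 7 were lower and 9 higher (median 0.04). None of the 32 was at least 1.5-fold higher in *rlp44-3*, where 2.07% of all genes were. There were 3 at least 1.5-fold lower, 9.38% of those passing, where 3.15% of all genes were, and 2 of the 3 reached the filter's level in all 3 genotypes.

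The next mitochondrial genes by reads varied. ATMG00090, next by reads in Col-0, had 4057 reads over the 3 libraries in Col-0, against 5535 in *exg1-1* and 5352 in *rlp44-3*, with log2 differences of 0.11 (0.05 to 0.16) and 0.09 (0.03 to 0.15). ATMG00080 had 921, 1404 and 1172 reads and differences of 0.27 (0.14 to 0.39) and 0.04 (−0.09 to 0.16). ATMG00070 had 758, 1085 and 782 reads and differences of 0.18 (0.04 to 0.31) and −0.27 (−0.41 to −0.12). ATMG00160 had 580, 688 and 692 reads and lay within its counting interval of Col-0 in both mutants (−0.10 and −0.06).

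Among the annotated mitochondrial genes, 6 passed the filter, and the most reads any of them had over 3 libraries was 125 (ATMG00560 in *exg1-1*). *rps4* (ATMG00290), which encodes a protein of the small ribosomal subunit, had the highest log2 difference in *exg1-1*. Its libraries held 7.86, 6.98 and 8.02 fitted reads in Col-0, 16.7, 20.2 and 20.8 in *exg1-1*, and 11.6, 11.5 and 12.0 in *rlp44-3*. Its log2 difference was 0.99 (0.27 to 1.76) in *exg1-1* and 0.31 (−0.50 to 1.12) in *rlp44-3*, so a 1.5-fold difference lay inside the interval in both mutants. It passed the filter through the mutants and not through Col-0, where it was lowest.

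ATMG00180, annotated as cytochrome C biogenesis 452, was the lowest in both mutants. It had 28.4 reads over the 3 libraries in Col-0, against 19.7 in *exg1-1* and 17.0 in *rlp44-3*, with log2 differences of −0.87 (−1.73 to 0.05) and −1.05 (−1.99 to −0.11). It was the mitochondrial gene at least 2-fold lower in *rlp44-3*, but it passed the filter through Col-0 alone, the genotype in which it was high, so its place follows in part from the filter. ATMG01360, without a product here, was next lowest in both, with 444, 398 and 347 reads and differences of −0.50 (−0.70 to −0.30) and −0.67 (−0.87 to −0.46). ATMG00560, annotated as an OB-fold-like nucleic acid-binding protein, had differences of 0.44 (0.02 to 0.89) and 0.13, with 72.5, 125 and 98.0 reads. The chromosome 2 gene matched to it, AT2G07715, went the other way. That gene had 76.9, 70.1 and 75.2 reads and differences of −0.48 and −0.34. *nad3*, *rps12* and ATMG01320 (annotated as NADH dehydrogenase 2B, a complex I subunit) had differences between −0.14 and 0.26, with intervals that included 0 in both mutants.

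Much of the mitochondrial genome recurs on chromosome 2 in TAIR10.1. Of all 150-base windows of the mitochondrial genome in TAIR10.1, 65.1% were also found, base for base, on chromosome 2, and 34.3% occurred once in the whole assembly. The authors mapped to TAIR10, whose mitochondrial sequence was not compared with that of TAIR10.1, so these shares may not hold for their mapping. Of the windows of the chloroplast genome, 0.170% were found on a nuclear chromosome and 33.8% more than once in the chloroplast genome itself, which carries a large inverted repeat. RefSeq notes named a chromosome 2 gene for 53 of the 152 mitochondrial identifiers in the table. Of these 53, 36 had values and 6 passed the filter. Of the other 99, 65 had values and 26 passed, among them both leading genes.

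The pairs whose starts are printed above were identical over the whole coding sequence in the genomic DNA of TAIR10.1. All 357 coding bases of mitochondrial *nad3* were found without a mismatch in AT2G07751, all 378 of *rps12* in AT2G07675 and all 1524 of *atp1* in AT2G07698. The same held for *rpl5* (558 bases, AT2G07725), *rps4* (1089 bases, AT2G07734), *cox3* (798 bases, AT2G07687) and *rps7* (447 bases, AT2G07696), and in each of the 7 genes every 150-base window recurred on a nuclear chromosome. Where both identifiers of a pair had reads, these were counted apart, while the chromosome 2 gene of *rps4* had no values. In TAIR10.1 no base of the coding DNA tells the copies apart. Neither the TAIR10 sequence nor bases changed in the RNA were examined, and the treatment of reads with several places is not given in the sources used here.

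Genes differed in how their reads were divided. *nad3* had 81.5 reads over the 3 libraries under the mitochondrial identifier and 73.7 under the chromosome 2 identifier in Col-0, 93.5 and 127 in *exg1-1*, and 105 and 101 in *rlp44-3*. *rps12* had 78.4 and 108 in Col-0, 119 and 150 in *exg1-1*, and 106 and 108 in *rlp44-3*. The 2 identifiers thus held reads of the same order for both genes in each genotype. For *atp1* the chromosome 2 identifier held most of the reads, 554 beside 24.2 in Col-0, 669 beside 32.5 in *exg1-1* and 481 beside 16.1 in *rlp44-3*, and its annotated gene is also the longer one (2665 bases beside 1524).

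*rpl5*, a ribosomal protein gene, was under the floor of 3 reads under the mitochondrial identifier in all 3 genotypes and had 60.5, 86.8 and 64.9 reads under the chromosome 2 identifier. *cox3*, which encodes a subunit of cytochrome c oxidase, had 5.03 reads under the mitochondrial identifier in Col-0 and 42.7 under the chromosome 2 one. Over the 21 mitochondrial genes for which both identifiers had values, the mitochondrial identifiers held 429 reads in Col-0, against 618 in *exg1-1* and 494 in *rlp44-3*, and the chromosome 2 identifiers 976, 1253 and 973. Levels and differences of these genes belong to the identifiers, since the genome of origin was not determined.

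**Figure D5:**
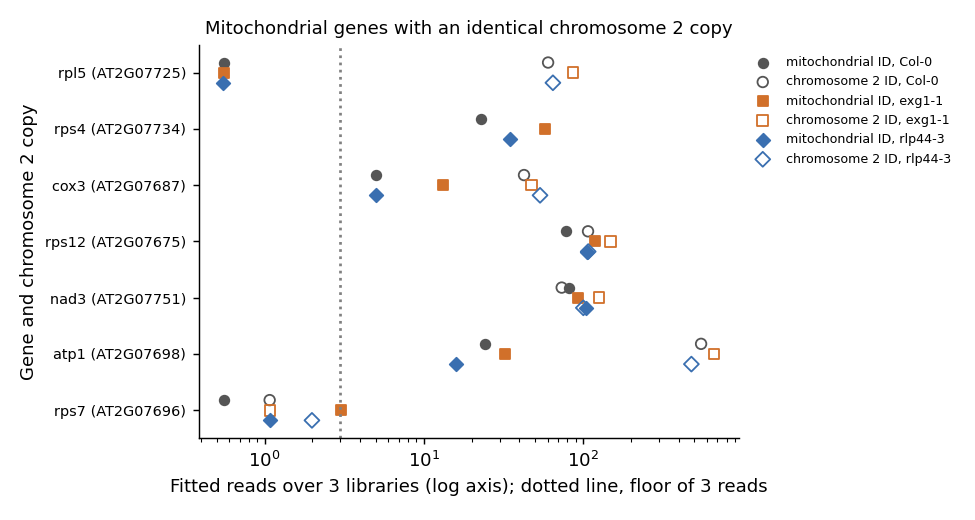
Fitted reads summed over the 3 libraries of a genotype (horizontal log axis) for 7 mitochondrial genes whose coding sequence recurs without a mismatch on chromosome 2, under the mitochondrial identifier (filled symbols) and the chromosome 2 identifier (open symbols, none for *rps4*, whose chromosome 2 gene had no values). The dotted line is the floor of 3 reads. *nad3* and *rps12* have similar reads under both identifiers, and *atp1* has 554 reads under the chromosome 2 identifier and 24.2 under the mitochondrial one in Col-0.

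Nuclear genes of the organelle transcription and RNA decay machinery were set against Col-0 as well. All 6 sigma factor genes passed the filter and were higher in *exg1-1*, where 49.4% of all genes were higher, with a median log2 difference of 0.20 beside −0.00 for all genes. In *rlp44-3* 4 of 6 were higher, where 49.8% of all genes were, with a median of 0.03. None was 1.5-fold apart from Col-0 in either mutant. Of all genes, 3.03% were at least 1.5-fold higher and 5.29% lower in *exg1-1*, and 2.07% and 3.15% in *rlp44-3*. *SIG5*, which encodes a sigma factor responsive to light and stress, had the highest difference of the list in *exg1-1* (0.53) and the lowest in *rlp44-3* (−0.33), with 1031 reads over the 3 libraries in Col-0, against 1887 in *exg1-1* and 1016 in *rlp44-3*. It was the sigma factor gene at least 1.5-fold higher in *exg1-1* than in *rlp44-3* (0.86).

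The 3 phage-type RNA polymerase genes had medians of 0.10 in *exg1-1* (2 of 3 higher) and 0.06 in *rlp44-3* (3 of 3 higher). For this list and those below, 49.4% of all genes were higher in *exg1-1* and 49.8% in *rlp44-3*. The 11 genes for proteins associated with the plastid polymerase had medians of 0.09 in *exg1-1* (9 of 11 higher) and 0.10 in *rlp44-3* (11 of 11 higher). Their sums were 484 per 1000000 nuclear reads in Col-0, against 531 in *exg1-1* and 516 in *rlp44-3*. Whether this list, the sigma factors or any other list of nuclear genes here had a part in the chloroplast differences was not tested. The 5 genes of organelle RNA decay, which include the polynucleotide phosphorylases that degrade tailed RNA, had medians of 0.10 and 0.00. Within them *RNJ*, which encodes chloroplast ribonuclease J, had the highest difference in both mutants (0.38 and 0.38). No gene of these 3 lists was 1.5-fold apart from Col-0, where 3.03% of all genes were higher and 5.29% lower in *exg1-1*. In *rlp44-3* 2.07% and 3.15% of all genes were. The green-tissue markers, nuclear genes of photosynthesis, had medians of 0.13 in *exg1-1* (6 of 6 higher) and 0.12 in *rlp44-3* (4 of 6 higher).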

How the data were processed

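Poly(A)-selected RNA was sequenced from 9 libraries, 3 per genotype. The authors used fastp for trimming, HISAT2 with TAIR10 for mapping, HTSeq for counting and DESeq2 for testing. Their versions, the use of strand and the treatment of multi-mapping reads are not given in the sources used here. Overlapping and antisense genes are therefore uncertain. The deposited table, named as raw counts (33341 rows, 7624 without values), held fitted means (unit: other) on the scale of reads and no counts, so no count test was run. Nothing says that the libraries came from separate seedling pools. A further 3 value columns, of no sample given here, were not used.

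The 3 columns of a genotype were summed. Genes were kept at 0.908 CPM (10 reads at median library size) in all libraries of 1 genotype and 15 reads in all, which left 19454. Genotypes were scaled by TMM over the 19316 nuclear genes kept (trim 30% and 5%; log2 scale 0.34 for *exg1-1*, 0.31 for *rlp44-3*), a step tested on simulated data. Intervals are exact (Clopper-Pearson) on rounded sums, cover counting error only, and the floor was 3 reads over 3 libraries. Members and lists were chosen with earlier results of these data known. Genes named are, per genome, the 6 with most Col-0 reads, those at the ends of the range, those 2-fold apart and those annotated (1 chloroplast gene is not reported here), with at most 2 identifiers without a product per direction. Groups of members by symbol could not be formed, since no table used here pairs the identifiers with symbols (0 of 230 were RefSeq locus tags). Copies were found with exact 150-base windows and blastn in RefSeq TAIR10.1, whose coordinates are not given because the build differs. Alternatives changed the scaling, filter, fold, libraries and members summed. Python 3.11.15, numpy 2.4.6, pandas 2.3.3, scipy 1.17.1 and matplotlib 3.10.9 were used.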

Additional observations from a re-analysis of the deposited data

How the results depend on the processing

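The cause of the changes below was not tested, except where fewer genes or members entered. For the summed chloroplast level, the log2 difference of *exg1-1* from Col-0 was 0.17 with upper quartile scaling, 0.17 with nuclear totals and 0.19 without the gene with most Col-0 reads, and that of *rlp44-3* was −0.38 with upper quartile scaling, −0.42 without the leading gene and −0.38 without genes named in RefSeq notes. For the summed mitochondrial level, *exg1-1* stood at −0.41 with upper quartile scaling, −0.42 with nuclear totals and −0.28 without the leading gene, and *rlp44-3* at −0.34 without that gene. Without the 2 leading genes, an alternative chosen after seeing the data, the values were 0.065 and −0.069.

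Without a filter (129 chloroplast, 101 mitochondrial genes), 23 chloroplast genes were at least 1.5-fold higher and 4 lower in *exg1-1*, and 21 mitochondrial genes were higher and 17 lower, where 8.62% of all 25717 genes were higher and 11.3% lower. In *rlp44-3*, 8 chloroplast genes were higher (6.2%) and 29 lower (22.5%), with a median of −0.30, and 19 mitochondrial genes were higher and 23 lower. Of all genes, 8.82% were higher and 9.27% lower there. With at least 10 reads in every library, 0 of 29 mitochondrial genes were 1.5-fold higher and 0 lower in *exg1-1*, where 2.15% and 3.49% of all genes were. Under the same filter 26 of 100 chloroplast genes were 1.5-fold lower in *rlp44-3* and 0 higher, where 1.89% and 1.24% of all genes were. At 2-fold, 0 chloroplast and 0 mitochondrial genes were higher or lower in *exg1-1*, and 1 chloroplast and 1 mitochondrial gene were lower in *rlp44-3*. With at least 1000 reads over the 9 libraries, also chosen after seeing the data, 3 of 79 chloroplast genes were higher and 0 lower in *exg1-1*, 0 of 10 mitochondrial genes were higher or lower there (1.47% and 1.23% of all genes), the chloroplast median of *rlp44-3* was −0.40 and 1 mitochondrial gene was lower (0.682% of all genes). With this last filter 23 of 79 chloroplast genes were 1.5-fold lower in *rlp44-3* and 0 higher, where 0.682% and 0.759% of all genes were. The chloroplast count higher in *exg1-1* was 88 to 92 of 106 over all scalings and the count lower in *rlp44-3* was 93.

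No paired analysis was possible because the columns of a genotype are multiples of one another and hold no spread between replicates, and for the same reason leaving out a library says nothing about stability. The replicate block and the omission of ribosomal and transfer RNA genes, which need replicate values and gene names, were not run. Few reads limit most mitochondrial genes.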
